A study of Mus musculus with 4 samples.

Results

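Chromosome 7 was profiled for DNA copy number in 4 samples of mouse liver cells on 4 arrays, 1 per sample, on which sample DNA and reference DNA with separate dyes were hybridised together (array comparative genomic hybridisation). The members were all probes placed on chromosome 7 of mouse build mm9 by the array design, leaving out 149 probes of olfactory receptor (Olfr) genes and the last 35 probes of the chromosome. They came to 3597 of 54677 probes on the array, of which 3596 were kept on all 4 arrays after flagged spots were removed. The first member started at 3314817 and the last ended at 150993263, with a median spacing of 14.5 kb. Of the members, 3037 carried 1 of 1504 gene names of the array design and 559 had no gene name. The rule uses position and name, not measured values.

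The labels give all 4 samples the genotype TAK1LPC-KO_RIP3-_-, and the series title ties it to TAK1-deficient liver parenchymal cells on a Rip3 double knockout, so there was 1 group with no second genotype. Sample DNA carried Cy5, and the reference was Cy3-labelled DNA pooled from 4 normal livers, whose genotype, sex and age are not given in the labels. DNA came from formalin-fixed, paraffin-embedded (FFPE) tissue sections, and 250 ng was labelled per sample. Slide 1 held replicates 1 and 2, and slide 2 held replicates 3 and 4. Dyes were not swapped, and any preference of a probe for 1 dye is therefore part of its value. The driver of the deletion, the ages and whether the samples came from separate animals are not given in the labels, so a p-value reflects no more than how these 4 samples differ, a difference that may be technical. The pool is the only control, so tests ask whether a ratio differs from 0, and how much normal livers differ among themselves is not part of them. Each ratio is an average over all cells of a sample, so a change in few cells cannot be told apart from a smaller one in all of them.

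TAK1 is a kinase that carries signals from TNF receptors to NF-kB, and RIP3 is a kinase of necroptosis, a regulated form of cell death. Mouse chromosome 7 is gene-rich near its centromere and holds clusters that arose by repeated duplication, among them kallikreins, vomeronasal receptors, zinc finger genes and cytochromes P450. It also carries imprinted domains, which are expressed from the maternal or the paternal copy only: the Peg3 domain, the Snrpn to Ube3a domain and the Igf2, H19 and Kcnq1 domains at its distal end. Its liver genes include Cyp2e1, a cytochrome P450 that oxidises ethanol, and growth genes such as Igf2 and Hras1.

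Each value below is a log2 ratio of sample over pool, centred on each array at the median of its autosomal probes. With 2 normal copies, 3 copies in every cell would give a ratio of 0.58 and a single remaining copy would give -1. The probe sequences on which the largest values rest are shown first, as given in the deposited array files, with G and C in capitals and A and T in lower case so that base composition can be read. The first 3 are the probes of Cyp2e1, of which 2 gave the highest ratios on the chromosome and the other did not. The next 2 gave the highest ratios elsewhere, and the next 2 are probes far below the pool that were well above background in both channels. The last 3, from Ube3a, Vasp and H19, contrast a probe of low GC content (28.3%) with probes of high GC content (48.9% and 43.4%).
Cyp2e1 at chr7:147949891-147949950: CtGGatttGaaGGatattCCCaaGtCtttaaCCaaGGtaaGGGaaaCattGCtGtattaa
Cyp2e1 at chr7:147955960-147956019: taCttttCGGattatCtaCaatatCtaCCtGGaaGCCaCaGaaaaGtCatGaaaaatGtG
Cyp2e1 at chr7:147956492-147956551: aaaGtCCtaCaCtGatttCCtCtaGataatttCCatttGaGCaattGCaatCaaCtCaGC
AK181724 at chr7:38968142-38968201: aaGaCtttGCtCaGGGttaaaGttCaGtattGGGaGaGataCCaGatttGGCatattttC
1600014C10Rik at chr7:38980841-38980900: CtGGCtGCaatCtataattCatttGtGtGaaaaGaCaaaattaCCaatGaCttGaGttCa
Bcl2l12 at chr7:52246572-52246631: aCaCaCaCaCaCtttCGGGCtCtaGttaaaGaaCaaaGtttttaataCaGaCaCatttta
Nlrp9c at chr7:27178382-27178441: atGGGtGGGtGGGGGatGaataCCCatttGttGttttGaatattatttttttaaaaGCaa
Ube3a at chr7:66496304-66496363: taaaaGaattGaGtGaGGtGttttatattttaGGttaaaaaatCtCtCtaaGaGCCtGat
Vasp at chr7:19855508-19855552: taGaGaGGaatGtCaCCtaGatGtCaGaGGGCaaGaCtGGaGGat
H19 at chr7:149762136-149762188: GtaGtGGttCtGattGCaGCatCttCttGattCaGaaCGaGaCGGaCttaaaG
Whether a probe lies in an exon or an intron was not analysed here, and gene names are those of the array design.

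Signal was measurable for most members. In the sample channel 87.3% to 91.7% of members were well above background, and in the pool 94.7% to 97.8%. The share of members well above background in both channels on all 4 arrays was 83.6%, against 82.3% of all autosomal probes. The ratios of the members correlated between arrays at 0.61 to 0.71 over probes, which share the pool and the probe sequences. Probe means had an SD of 0.40 over the chromosome, while the median SD of a probe over the 4 arrays was 0.19. A ratio within 0.5 of 0 was found for 82.9% of members and 82.2% of autosomal probes. Most of the spread along the chromosome was therefore between probes rather than between arrays.

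As a whole, chromosome 7 sat slightly above the pool. Its median log2 ratio was 0.04 in replicate 1, 0.03 in replicate 2, 0.06 in replicate 3 and 0.07 in replicate 4. All 4 were above 0, and the arrays of slide 2 were both above those of slide 1. The mean was 0.05 ± 0.02 (SD, n = 4), with an adjusted p of 0.000589 by limma over 19 autosomes. By the exact two-sided sign-flip permutation test of this single value the p was 0.125, the smallest that 4 arrays allow. Among autosomes, 31.6% were above the pool and 52.6% below it by the same limma rule, so a shift of this kind was common on these arrays. The value was far below the 0.58 that 3 copies in every cell would give.

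Chromosome 7 had the 5th highest median of the 19 autosomes. Within arrays it was higher than 14 other autosomes and lower than 4 at an adjusted p under 0.05 (limma, 18 differences). With slide as a random block it was higher than 11 and lower than 4, and with slide means as 2 samples higher than 11 and lower than 3. The 4 higher autosomes were 4, 14, 8 and 13, and chromosome 7 minus each of them was -0.04, -0.07, -0.11 and -0.13. Its nearest lower neighbours in the order were chromosomes 16 and 6, from which it differed by 0.03 each (adjusted p = 0.0411 and 0.0402 by limma, unadjusted 95% intervals of -0.01 to 0.08 and -0.02 to 0.08). Both of these differences were lost when the background was corrected with normexp, a model of signal plus background (adjusted p = 0.106 and 0.208). The difference from chromosome 4 was -0.02 after a correction for GC content (adjusted p = 0.102 by limma).

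**Figure D1:**
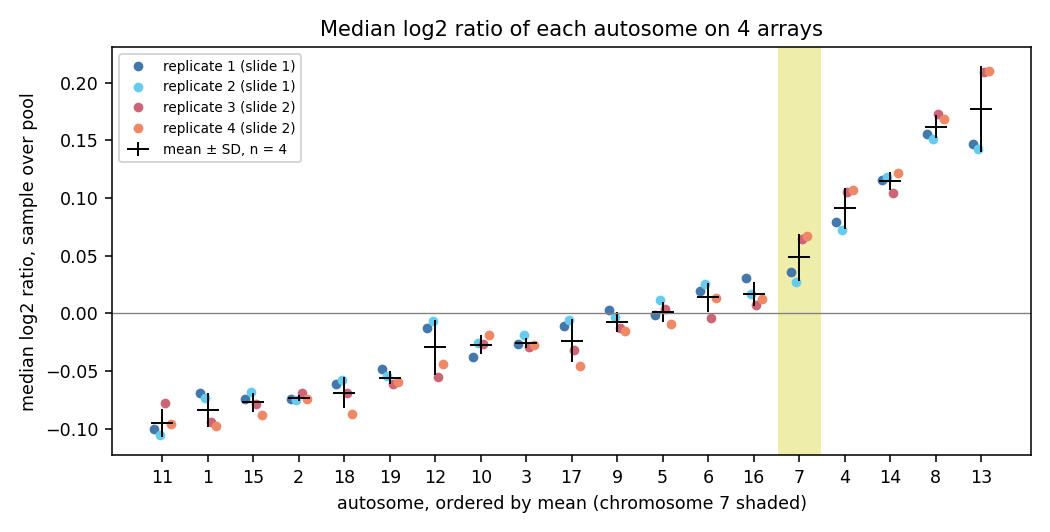
Median log2 ratio of sample over pool (vertical axis) for each of the 19 autosomes (horizontal axis, ordered by mean), with 1 point per array and the mean ± SD of 4 arrays in black. Chromosome 7, shaded, is 5th from the top with a mean of 0.05, and its 2 slide 2 arrays are above its 2 slide 1 arrays.

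The chromosome did not sit at 1 level along its length. In 30 windows of 5 Mb (at least 10 probes each, no members between 40 and 45 Mb), 20 were above 0 and 4 below 0 at an adjusted p under 0.05 (limma, 499 autosomal windows). Over all 499 autosomal windows, 178 were above 0 and 124 below 0 by the same test. With the further limit of an absolute mean of 0.15, 4 windows were called higher and 0 lower, against a background of 13.8% of autosomal windows called higher, 6.01% called lower and 19.8% called in either direction. At an unadjusted p under 0.05 without the size limit, 24 of the 30 windows differed from 0 by limma, and 320 of all 499 autosomal windows did. The window at 65 to 70 Mb was the highest, with 0.20, 0.29, 0.26 and 0.16 in replicates 1 to 4 and a mean of 0.23 ± 0.06 (adjusted p = 5.90e-06). It holds the Snrpn to Ube3a imprinted domain, and every array was above 0 there. The other windows called higher were 60 to 65 Mb (0.17 ± 0.04), 80 to 85 Mb (0.17 ± 0.02) and 120 to 125 Mb (0.16 ± 0.04). With normexp 1 window was called higher, and within slide 2 alone 8 were.

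The lowest windows lay in the gene-rich proximal region. The window at 15 to 20 Mb had ratios of -0.10, -0.10, -0.08 and -0.09 and a mean of -0.09 ± 0.01. The neighbouring windows at 20 to 25 Mb (-0.09 ± 0.05) and 25 to 30 Mb (-0.07 ± 0.03), and the window at 50 to 55 Mb (-0.06 ± 0.03), were also below 0 on all 4 arrays. These 4 windows passed the adjusted p but not the size limit. After a correction for GC content, described below, none of the 4 passed below 0: the means were -0.03 and -0.02 at 15 to 20 and 25 to 30 Mb, and turned to 0.03 at 20 to 25 Mb and 0.07 at 50 to 55 Mb (adjusted p = 0.00885 by limma for the last). They hold pregnancy-specific glycoprotein, kallikrein and other clustered genes, and the windows at 25 to 30 Mb and 50 to 55 Mb are the most densely probed of the chromosome, with 248 and 293 probes.

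**Figure D2:**
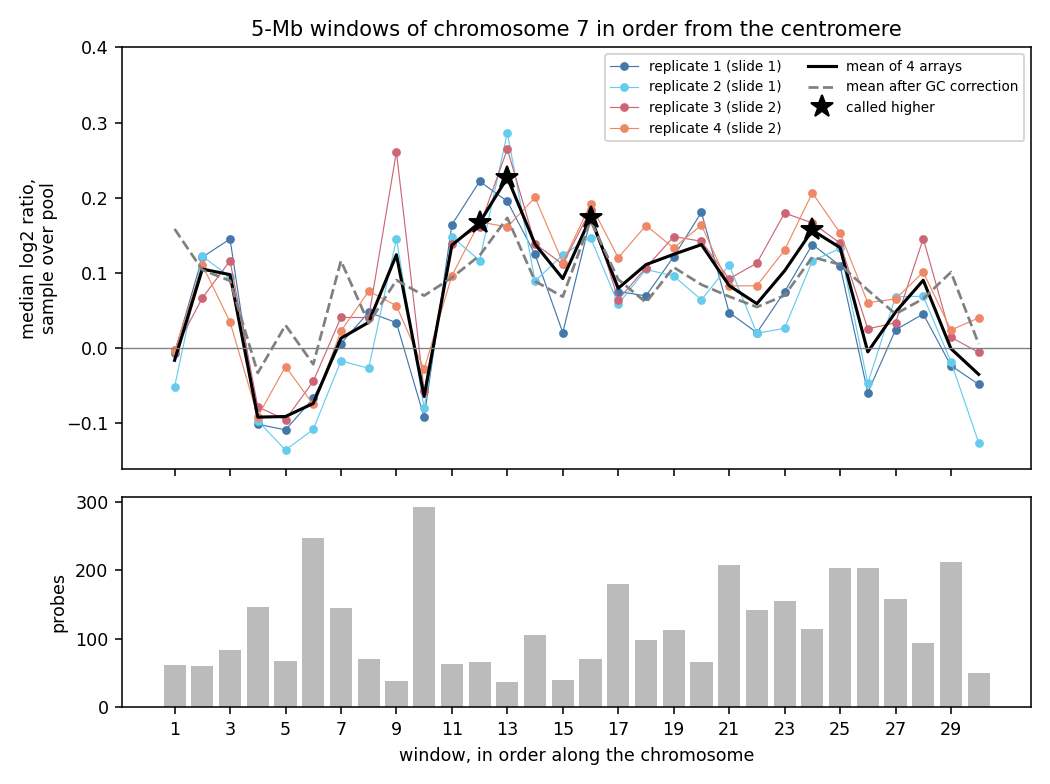
Median log2 ratio (upper panel) and number of probes (lower panel) of 30 windows of 5 Mb in order along chromosome 7, with 1 line per array, the mean of 4 arrays in black and the mean after GC correction dashed. Stars mark the 4 windows called higher, the highest at 0.23. The lowest window means of -0.09 lie at 15 to 20 Mb and 20 to 25 Mb and come close to 0 after the correction. The line joins the windows on both sides of the stretch without members.

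The median of the proximal part was below those of the middle and distal parts on every array. The parts are bins set by position, and each holds windows of both signs. Against the order of the parts, 5 to 10 Mb was at 0.11, 50 to 55 Mb at -0.06 and 150 to 155 Mb at -0.03. The main segmentation, described below, placed no break on any array. The proximal part (0 to 50 Mb, 923 probes) had a median of -0.02 ± 0.01, the middle part (50 to 100 Mb, 1066 probes) 0.08 ± 0.01 and the distal part (from 100 Mb on, 1607 probes) 0.07 ± 0.03 (SD, n = 4). Within arrays, the middle exceeded the proximal part by 0.08, 0.10, 0.09 and 0.11 in replicates 1 to 4, a mean of 0.09 ± 0.01 (adjusted p = 3.49e-16 by limma). The distal part exceeded the proximal part by 0.06, 0.07, 0.09 and 0.11, a mean of 0.08 ± 0.02 (adjusted p = 2.98e-13). Limma shares the spread over 45 differences between parts, so these p-values do not rest on 4 arrays alone. With slide means as 2 samples the 2 adjusted p-values were 0.0015 and 0.0056 by limma. The distal minus the middle part was -0.01 ± 0.02 (adjusted p = 0.231), with values of -0.03 and -0.03 on slide 1 and 0.01 and -0.00 on slide 2. Over autosomes, 80% of such differences between parts passed the same test. The middle minus proximal difference ranked 9th and the distal minus proximal difference 18th by absolute size among 45.

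Base composition moved with this pattern. Over the 30 windows, the mean ratio correlated with the mean GC content of the probes at a Pearson r of -0.80 and a Spearman rho of -0.76. Over all 499 autosomal windows the values were -0.41 and -0.40. These are descriptions over windows that share arrays and pool. The window at 65 to 70 Mb had the lowest GC content, 33.8%, and the window at 50 to 55 Mb the highest, 38.1%. Probes of 40% GC or more had a median of -0.13 ± 0.03 on chromosome 7 and -0.19 ± 0.02 on all autosomes. Those from 33% to under 35% had 0.12 ± 0.03 and 0.06 ± 0.01. In each of 5 classes of GC content chromosome 7 was the higher of the pair.

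After each array was corrected for GC content of the probe and of the surrounding probes, the windows of chromosome 7 lay closer together. The SD over windows went from 0.08 to 0.05 on chromosome 7 and from 0.11 to 0.10 over all autosomes. Windows above 0 went from 22 to 28 of 30 (from 73.3% to 93.3%), while over all autosomes the share went from 55.5% to 47.3%. After correction 24 windows had an adjusted p under 0.05 by limma, and each of these was above 0. The count over all autosomal windows at this limit alone is not given here. The windows called higher were then 0 to 5 Mb (0.16), 65 to 70 Mb (0.17) and 80 to 85 Mb (0.17), so 2 of the 4 kept their call. By the same rule after correction, 57 of all 499 autosomal windows were called higher and 17 lower. The chromosome's mean was 0.07 after this correction. The middle minus proximal difference was 0.06 (adjusted p = 3.76e-08) and the distal minus proximal difference 0.05 (adjusted p = 3.29e-06).

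**Figure D3:**
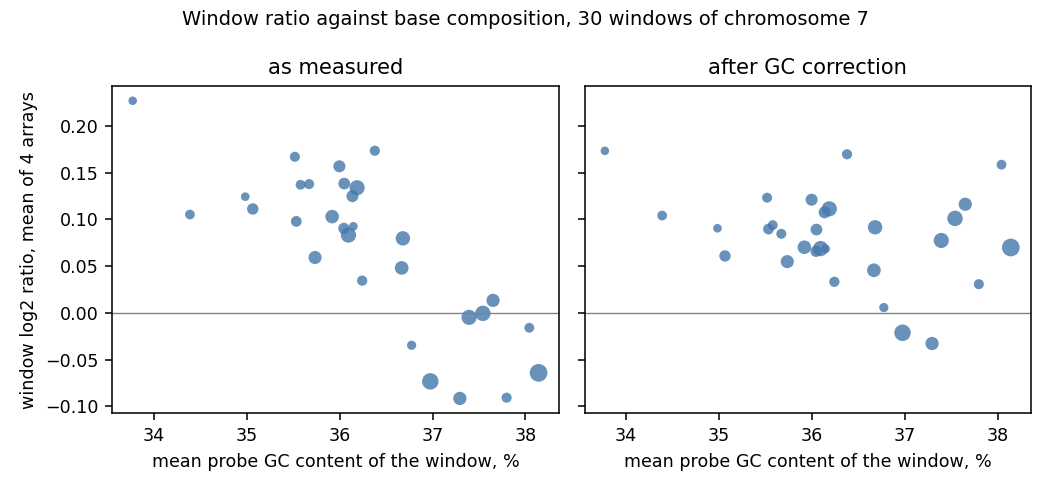
Mean log2 ratio over 4 arrays of each of the 30 windows (vertical axis) against the mean GC content of its probes in percent (horizontal axis), as measured on the left and after GC correction on the right; point size grows with the number of probes. As measured, windows above 37% GC lie near or below 0 (r = -0.80), and after correction 28 of 30 windows are above 0.

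Small classes of probes followed the same order. The 1113 members (31.0%) whose sequence holds the dinucleotide CG, on either strand, had a median of 0.02 ± 0.03, and the 2483 without it 0.06 ± 0.02. Over all autosomes 35.8% of probes hold it, with medians of -0.02 and 0.01. The 28 members whose whole sequence matched a RefSeq promoter window of assembly GRCm38.p6, from 250 bases before to 50 bases after a gene start, had a median of -0.15 ± 0.06 and a mean GC content of 39.3%. Their 306 counterparts over all autosomes had -0.08 ± 0.02. Neighbouring members were only weakly alike, as a description. The Pearson r of their mean ratios was 0.14 over 223 pairs within 2 kb and 0.22 over 1098 pairs 2 to 10 kb apart. It was 0.15 over 1675 pairs 10 to 50 kb apart and 0.07 over 599 pairs more than 50 kb apart.

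No segment was called on any array in the main setting of the segmentation, which splits the chromosome into stretches of at least 5 probes by penalised least squares and calls a stretch at an absolute mean of 0.25. Each array gave 1 segment for the whole chromosome. With a penalty multiplier of 5 in place of 10, each array gave 4 segments. On all 4 arrays the first break lay between 53633770 and 54816229, with means before and after it of -0.06 and 0.06, -0.07 and 0.05, -0.02 and 0.11, and -0.01 and 0.11 in replicates 1 to 4. The only called stretch was 5 probes at Cyp2e1, with means of 1.66, 1.64, 1.69 and 1.6. It ran from 147949891 to 147964975 on 3 arrays and from 147891555 to 147956019 on replicate 3. The stretch beyond it had means of -0.11, -0.15, -0.06 and -0.03.

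Gene by gene, 296 of 1504 named genes (19.7%) were higher and 255 (17.0%) lower than the pool (limma over 20478 autosomal genes, with an adjusted p under 0.05 and a mean at least 0.25 away from 0). The background over all autosomal genes was 16.1% higher and 19.2% lower. After the correction for GC content the same counts on chromosome 7 were 323 and 173. The shares over all autosomal genes after this correction are not given here, so the background above does not apply to these counts. The median gene ratio was 0.03 on chromosome 7 and -0.01 over all autosomal genes. A gene's ratio is the mean of its probes, and 711 of the genes had 1 probe only. Among the 321 genes with at least 3 probes, 51 (15.9%) were higher and 30 (9.35%) lower, against 12.6% and 12.3% of such genes on all autosomes. Genes called higher had a mean probe GC content of 36.0%, those called lower 38.8% and the others 36.8%. Probes of 1 gene differed more than arrays did: over the 321 genes the median SD between a gene's probes was 0.29 and between arrays 0.11.

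Cyp2e1 stood far above every other gene with several probes. Its ratio was 2.31, 2.30, 2.48 and 2.42 in replicates 1 to 4, a mean of 2.38 ± 0.09 (adjusted p = 3.14e-05 by limma), or 5.19-fold over the pool. The value came from 2 of its 3 probes. The probe at 147949891 had 3.25, 3.27, 3.52 and 3.59, a mean of 3.41 ± 0.17 or 10.6-fold. The probe at 147955960 had 3.64, 3.51, 3.46 and 3.22, a mean of 3.46 ± 0.17 or 11-fold. The remaining probe, at 147956492, lies within 1 kb of the second and had 0.05, 0.11, 0.45 and 0.44, a mean of 0.26 ± 0.22. All 3 were well above background in both channels on every array.

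The probes on both sides of Cyp2e1 did not share its level. The nearest upstream probe, at 147907114, had a mean of 0.39 ± 0.21. The 4 probes of Syce1, a synaptonemal complex gene of meiosis that follows Cyp2e1, had means of 0.32, 0.73, 0.32 and 0.26. The probe at 147974279 was at -0.10 ± 0.12 and the one at 147979804 at 0.67 ± 0.06. The high ratios were thus held by 2 probes a few kilobases apart, with no plateau around them.

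**Figure D4:**
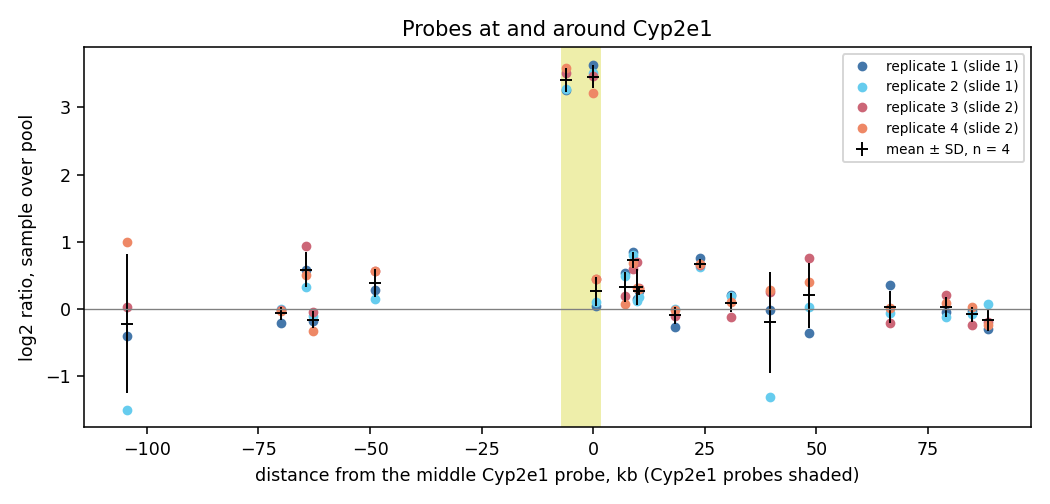
Log2 ratio of sample over pool (vertical axis) of the probes at and around Cyp2e1 against their distance in kilobases from the middle Cyp2e1 probe (horizontal axis), with 1 point per array and the mean ± SD of 4 arrays in black. The 2 high probes are at 3.41 and 3.46 on average, while the third Cyp2e1 probe, beside them, is at 0.26.

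A second pair of very high probes lay near 39 Mb. The only probe of 1600014C10Rik, at 38980841, had 2.43, 2.52, 2.58 and 2.53, a mean of 2.52 ± 0.07 (adjusted p = 2.61e-05 by limma), or 5.72-fold over the pool. This gene, with 1 probe, was chosen after its value was seen. A probe of the transcript AK181724 at 38968142, 12.7 kb before it, had 2.68, 2.56, 2.84 and 2.84, a mean of 2.73 ± 0.14. The other AK181724 probes, at 38850850 and 39004943, were at -0.25 ± 0.16 and -0.36 ± 0.23. A probe of Ccne1, the cyclin E1 gene between them, was at 0.34 ± 0.22, and those of Plekhf1 were at 0.00 ± 0.04 and -0.44 ± 0.12. As at Cyp2e1, the 4 arrays gave similar values at each of the 2 high probes, and the neighbouring probes did not follow.

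After Cyp2e1, the other 9 of the 10 highest genes with at least 3 probes (1 per Mb) lay between 0.45 and 0.71. Ankrd27, an endosomal trafficking gene, had a mean of 0.57 ± 0.13, with probe means from -0.18 to 1.54. Nlrp2, of the NLRP family expressed in oocytes, had 0.59, 0.50, 0.60 and 0.56, a mean of 0.57 ± 0.05 with all 5 probes at 0.40 or more. In 4732471J01Rik (0.56 ± 0.03) the 5 probes ran from 0.09 to 1.45. Mef2a, a transcription factor of muscle and nerve, had a mean of 0.51 ± 0.11 and probes from 0.42 to 0.63. Fam168a (0.54 ± 0.10), the inhibitory receptor gene Lair1 (0.53 ± 0.08), Pcf11 of mRNA 3' end processing (0.48 ± 0.21) and Lyrm1 (0.45 ± 0.18) completed the set with AK181724 and Cyp2e1. The adjusted p of these 10 genes was at most 0.0094 by limma. A call and the same sign on all 4 arrays were conditions of their selection, so neither is a further result.

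The 10 lowest genes with at least 3 probes lay between -0.59 and -0.42. Unc45a, a myosin chaperone, was lowest with -0.69, -0.53, -0.55 and -0.61, a mean of -0.59 ± 0.07 (adjusted p = 0.0017 by limma), and its 3 probes ran from -0.83 to -0.47. Capn5, a calpain protease gene, had -0.56 ± 0.08 and Gpr123, an adhesion receptor gene, -0.56 ± 0.20. Muc2, the main mucin of the intestine, had 6 probes, all at -0.29 or less, and a mean of -0.52 ± 0.15. Abcc6, a transporter gene of hepatocytes, had -0.53, -0.67, -0.40 and -0.41, a mean of -0.51 ± 0.13. Slc17a7, the vesicular glutamate transporter gene, was at -0.49 ± 0.09. It fell short of the threshold after GC correction (-0.16, adjusted p = 0.092). Ryr1, the calcium release channel of skeletal muscle, was at -0.44 ± 0.08 with probes from -0.48 to -0.42.

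P4ha3, a collagen prolyl hydroxylase gene, rested on 1 probe. Its ratio was -0.24, -0.45, -0.95 and -0.19, a mean of -0.46 ± 0.34. The probe with -1.55 had no sample signal well above background on any array, and over the other probes the mean was 0.07. The gene was not called without replicate 1, 2 or 3. Rsph6a, of sperm flagella, and ENSMUST00000071399, both in the lowest window, were at -0.44 ± 0.08 and -0.42 ± 0.11. In the second, 1 of 4 probes (-1.35) had no sample signal well above background on any array, and over the other 3 the mean was -0.12 (adjusted p = 0.132 by limma). It was also not called with normexp (-0.21), nor was Gpr123 (-0.25).

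**Figure D5:**
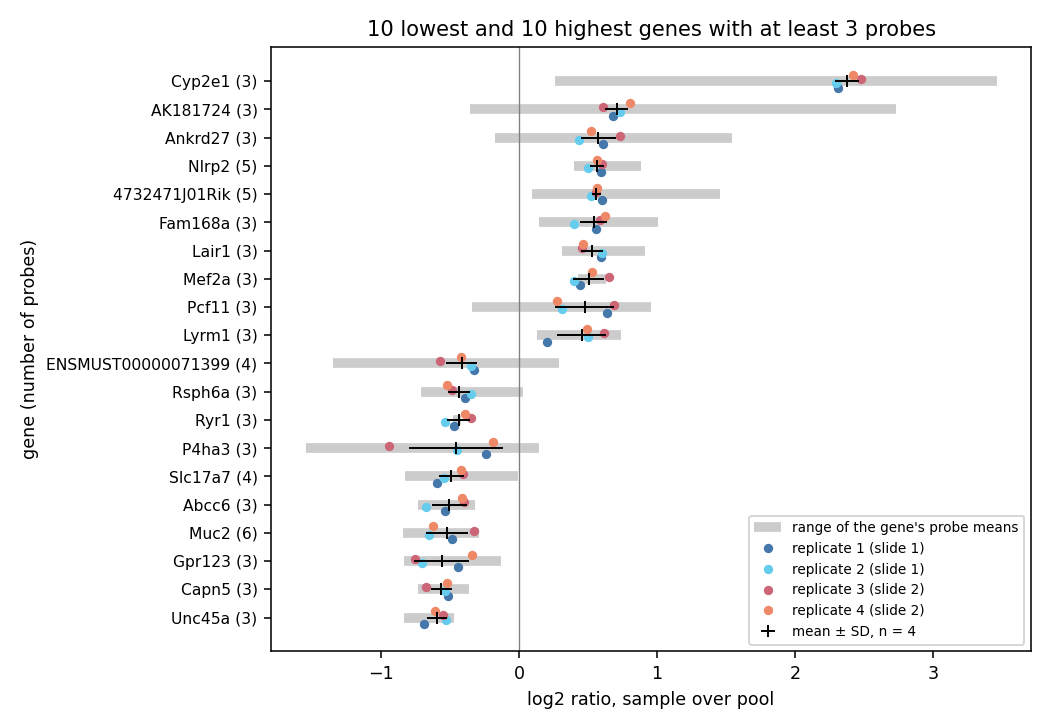
Log2 ratio of sample over pool (horizontal axis) of the 10 lowest and 10 highest named genes with at least 3 probes (vertical axis, number of probes in brackets), with 1 point per array, the mean ± SD of 4 arrays in black and the range of the gene's probe means as a grey bar. Arrays lie close together in some genes, such as 4732471J01Rik (SD 0.03), and further apart in others, such as P4ha3 (SD 0.34). The probes of Cyp2e1 run from 0.26 to 3.46 and those of AK181724 from -0.36 to 2.73.

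Far values of single probes were as common as elsewhere. A mean of 1 or more was found for 27 members (0.751%) and a mean of -1 or less for 29 (0.806%), against 0.741% and 0.916% of autosomal probes. Of the 29 low members, 14 had no sample signal well above background on any array, so these values give bounds only. For 14 genes the sample was dim on all 4 arrays and a bound could be given. The largest was Ifitm1, an interferon-induced membrane protein gene, at least 1.76-fold lower than the pool (adjusted p = 0.0039 by limma). It was followed by ENSMUST00000108212 at least 1.53-fold and Ptov1 at least 1.29-fold lower. Each bound takes, per array, the dimmest signal of any probe still well above background, or the probe's own signal where that is higher.

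Some far probes without a gene name were high or low on all 4 arrays. The probe at 121293039 had 1.33, 1.29, 1.26 and 1.28, a mean of 1.29 ± 0.03. Another at 54857297 had a mean of 1.33 ± 0.06, and one at 62922923 had -1.11, -1.73, -1.61 and -1.65, a mean of -1.52 ± 0.28. In the 2 single-probe genes with the low probes printed above, the slides stood apart. Bcl2l12, a relative of the BCL2 regulators of cell death, had -1.98 and -1.78 on slide 1 and -0.94 and -0.85 on slide 2, a mean of -1.39 ± 0.57 (adjusted p = 0.0038 by limma). Nlrp9c had -1.62 and -1.61 on slide 1 and -1.01 and -0.98 on slide 2, a mean of -1.30 ± 0.36.

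Imprinted genes were examined as a group because they cluster in domains. Of 28 measured, 7 were higher, 4 lower and 17 not called, with a median of -0.05 against 0.03 for all chromosome 7 genes. After GC correction 5 were higher and 5 lower, and the median turned to 0.04, against 0.07 for all chromosome 7 genes. In the Peg3 domain Peg3 itself, a zinc finger gene expressed from the paternal copy, had 0.34, 0.61, 0.49 and 0.05, a mean of 0.37 ± 0.24. Its neighbour Zim1 was at 0.39 ± 0.16. Peg3 was not called without replicate 1, 2 or 3, where its adjusted p reached 0.0926 by limma. Nor was Peg3 called after GC correction (0.28, adjusted p = 0.0729 by limma). On its 1 probe well above background in both channels on all arrays it was at 0.30, also not called (adjusted p = 0.0523 by limma). In the Snrpn to Ube3a domain, Mkrn3 had 1.04, 0.77, 1.21 and 0.91, a mean of 0.98 ± 0.19 on 1 probe. Ube3a, a ubiquitin ligase expressed from the maternal copy in neurons, was at 0.35 ± 0.11 with probes from -0.15 to 0.92, none of them well above background in both channels on all arrays. Snrpn, a splicing protein gene expressed from the paternal copy, was at 0.31 ± 0.09 and was not called without replicate 2, with normexp (0.21) or after GC correction (0.23). Ndn, between Snrpn and Mkrn3, was not called, with -0.34 and -0.34 on slide 1 and -0.01 and 0.01 on slide 2.

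At the distal end most measured imprinted genes were not called. The called ones lay on both sides of 0, with Cdkn1c alone above it. H19, a noncoding RNA gene expressed from the maternal copy, had -0.97, -0.91, -0.88 and -0.42, a mean of -0.79 ± 0.25 on 1 probe (adjusted p = 0.0028 by limma). Igf2, the growth factor gene expressed from the paternal copy, had -0.38, -0.65, -0.61 and -0.56, a mean of -0.55 ± 0.12, with both probes low. Cdkn1c, a growth inhibitor expressed from the maternal copy, was higher, with 0.57, 0.52, 0.45 and 0.47 on 1 probe (mean 0.50 ± 0.05). Kcnq1, whose 5 probes span the domain between Tssc4 and Cdkn1c, was at 0.03 ± 0.07 and not called. Tssc4 (-0.39 ± 0.10) and, outside the domains, Ampd3 (-0.35 ± 0.07) were lower, and Inpp5f (0.35 ± 0.17) was higher, a call lost without replicate 1 or 3. In none of these domains were all measured genes called in 1 direction.

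Of 9 cytochromes P450 measured, 3 were higher and 6 not called, with a median of 0.23. Besides Cyp2e1 the higher genes were Cyp2g1, of the olfactory mucosa, with 0.93, 0.55, 0.70 and 0.80 (mean 0.75 ± 0.16), and Cyp2f2, of lung and liver, with 0.61, 0.55, 0.52 and 0.50 (mean 0.55 ± 0.05). Both rest on 2 probes above 0. Cyp2b19, with 4 probes in the same cluster, was at 0.08 ± 0.13, and Cyp2b10, Cyp2s1, Cyp2t4 and Cyp2b23 were not called, with means from -0.03 to 0.28. Cyp2r1, a vitamin D hydroxylase outside that cluster, had 0.23 ± 0.09, under the size limit. Of 26 other genes chosen for expression in liver, 4 were higher and 3 lower, with a median of 0.07. After GC correction these counts were 8 and 2. Acsm3 (0.62 ± 0.06) and Acsm1 (0.35 ± 0.12), acyl-CoA synthetases, were higher, while Abcc6 and Vkorc1, of the vitamin K cycle (-0.57 ± 0.19), were lower.

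Among the clustered receptor families, called genes lay above 0. Of 26 vomeronasal receptor genes, 12 were higher and 14 not called, with a median of 0.29. Of the 26 genes, 21 had 1 probe. Vmn1r66 was at 0.75 ± 0.22 and V1rd18 at 0.74 ± 0.25. Of 7 Mrgpr genes, itch and pain receptors of sensory neurons, 4 were higher and 3 not called. Mrgprx2 had 0.73, 0.74, 0.74 and 1.01, a mean of 0.80 ± 0.14. The Mrgpr count was 2 without replicate 1, 2 or 4. Olfactory receptor probes, left out of the members, had a median of 0.12 ± 0.05. The mean GC content of the vomeronasal genes was 34.8% and that of the Mrgpr genes 36.4%.

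Kallikreins are serine proteases encoded in a tight cluster near 51 Mb. Of 19 measured, 1 was higher, 5 lower and 13 not called, with a median of -0.16 and a mean GC content of 38.1%. Klk4 had -1.46, -0.87, -1.05 and -0.96 (mean -1.08 ± 0.26), and Klk15 was at -0.88 ± 0.19. Neither probe was well above background in both channels on all arrays. After GC correction the counts were 3 higher and 2 lower. The median was then 0.02, so its direction turned, against 0.07 for all chromosome 7 genes. Of 22 Siglec, Ceacam and Psg genes 3 were higher and 3 lower. Of 22 Nlrp and Trim genes 7 were higher and 4 lower, among them Trim30d (0.65 ± 0.11) and Trim30b (-0.77 ± 0.12), which are neighbouring copies. Of 74 zinc finger genes 15 were higher and 14 lower, with a median of 0.05.

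Genes of growth and tumour biology did not move together. Of 23 measured, 7 were higher, 3 lower and 13 not called, with a median of 0.14. Ilk, an integrin-linked kinase gene, was at 0.64 ± 0.13 and Eed, of the polycomb repressive complex, at 0.52 ± 0.14. Hras1, the Ras oncogene often mutated in mouse liver tumours, had -0.37, -0.54, -0.53 and -0.66 on 1 probe, a mean of -0.52 ± 0.12. After GC correction Hras1 was at -0.24, under the size limit. Of 10 DNA repair genes, 1 was lower and 9 were not called. The lower gene, Pold1 (-0.30 ± 0.19), had probes at -0.75 and 0.16 and was not called without replicate 1, 2 or 3. After GC correction Pold1 was at 0.02.

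Of 14 genes of TNF signalling, NF-kB and cell death, the pathways named by the genotype, 4 were higher and 4 lower, with a median of 0.14. Pycard, the adaptor of inflammasomes, had 0.96, 0.72, 1.14 and 0.70 on 1 probe (mean 0.88 ± 0.21). Tollip, a regulator of Toll-like receptor signalling, was at 0.70 ± 0.09 with both probes above 0.5. Bbc3, which encodes the death inducer PUMA, was at -0.43 ± 0.14, and Bcl2l12 was lower as given above. Genes on both sides of 0 were thus found within the same pathway list.

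Some large genes allowed the ratio to be read over many probes, while others had few. Of 17 measured, 5 were higher and 12 not called, with a median of 0.18. Sox6, a transcription factor gene with 30 probes, had 0.18, 0.26, 0.35 and 0.32, a mean of 0.28 ± 0.07 with probes from -0.48 to 1.46. Grm5, a glutamate receptor gene, was at 0.26 ± 0.06 on 6 probes, Insc at 0.34 ± 0.01 on 3 and Gabra5 at 0.47 ± 0.13 on 2. The 2 genes still called after GC correction were Insc (0.30) and Gabra5 (0.42), both with few probes. Sox6 was not called after GC correction (0.24), over its probes well above background in both channels on all arrays (0.22), with normexp (0.16) or without replicate 2, 3 or 4 (adjusted p of 0.051 to 0.059 by limma), and Grm5 was lost under the same settings. The count of 5 higher genes was 2 after GC correction, 3 without replicate 2 or 3, 2 without replicate 4 and 1 with normexp. Oca2, a coat colour gene with 15 probes, was at -0.03 ± 0.04 and not called, with values of -0.06, -0.06, 0.03 and -0.01. Tyr, the tyrosinase gene mutated in albino strains, had 0.59, 0.46, 0.36 and 0.36 on 2 probes, a mean of 0.44 ± 0.11. Of 3 beta-globin genes measured, 1 was higher, Hbb-bh1 (0.41 ± 0.35), and it was not called without replicate 1, 2 or 3.

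The lists were described by counts only. Their members were chosen with earlier results known, and no test of a list was made. Over all autosomal genes 16.1% were called higher and 19.2% lower. The shares were 20.3% and 18.9% of zinc finger genes, 15.4% and 11.5% of liver genes, and 13.6% each of Siglec, Ceacam and Psg genes. They were 31.8% and 18.2% of Nlrp and Trim genes, 30.4% and 13.0% of growth and tumour genes, and 28.6% each of the TNF and cell death list. Of kallikreins 5.26% were higher and 26.3% lower, the second share being 2 of 19 genes after GC correction. Higher calls made up 46.2% of vomeronasal, 57.1% of Mrgpr, 33.3% of P450 and 29.4% of large genes. They also made up 33.3% of beta-globin genes, of which 3 were measured. Calls in either direction were made for 39.3% of imprinted genes, against 35.4% of all autosomal genes. Lower calls made up 14.3% of imprinted genes, against 19.2% of all autosomal genes, and the rest of the imprinted calls were higher. Of 10 DNA repair genes, 1 was lower and 0 were higher.

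The slides differed for the chromosome as a whole. The median was 0.03 on slide 1 and 0.07 on slide 2, and slide 2 minus slide 1 was 0.03 (adjusted p = 2.07e-05 by limma over 19 autosomes). Over autosomes 52.6% differed between slides by the same test. Of the 30 windows, 0 differed at an adjusted p under 0.05 by limma and 4 at an unadjusted p under 0.05, against 0% and 14.4% of all autosomal windows. Slides hold different samples, so slide and sample cannot be told apart. The distal boundary of the members did not mark a change: the last 5 members had means from -0.33 to 0.15 and the first 5 probes beyond them from -0.56 to 0.30.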

How the data were processed

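The deposited intensity values are processed Cy5 and Cy3 signals of Agilent Feature Extraction 10.10.1.1, background-subtracted, detrended and dye-normalised, per the file headers. The deposited log10 ratio column matched the ratio of these intensities to within 4.1e-07. A deposited log2 table of these arrays, used as an alternative, correlated with the same array at 0.92 to 0.93 over the members, and its normalisation stays unknown. The 4 column medians were -0.035, 0.029, 0.052 and 0.005.

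Control spots (3924 of 62976) and flagged spots were removed, the log2 ratio of Cy5 over Cy3 was taken, repeat spots were averaged per probe and arrays were centred on their autosomal medians, with no loess or quantile step. Medians of chromosomes, windows and parts and means of genes were tested against 0 with limma 3.58.1 in R 4.3.3 (lmFit, eBayes, Benjamini-Hochberg) over all autosomes, checked on simulated data. GC content was taken from the probe sequences, and the correction was a spline of 4 degrees of freedom per array for the probe and for probes within 500 kb. Of 1504 gene names, 1125 are RefSeq symbols of GRCm38.p6 and 110 are synonyms.

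Named genes were the 10 highest and 10 lowest called genes (3 probes or more, the same sign on every array, not more than 1 from a 1-Mb bin), up to 4 called members of each list, all imprinted and P450 genes, called genes with at least 3 probes in the highest and lowest window, Tyr and Oca2. The members and lists were chosen with earlier results of these data known. Alternatives were another background correction (normexp with an offset of 50), the deposited table, only bright probes, flagged spots kept, centring on the mode, GC correction, leaving out each replicate, slide as a block, other window and size limits and other penalties.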

Additional observations from a re-analysis of the deposited data

Results flagged for a closer look

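In 5 of 134 groups of 4 values tested, 1 array lay far from the other 3, where chance gives about 1 in 20. In the window from 0 to 5 Mb replicate 2 was at -0.051, while the others were between -0.01 and -0.00. In the window from 75 to 80 Mb replicate 1 was at 0.021 and the others between 0.11 and 0.12. Mrgprx2 was at 1.01 in replicate 4 and between 0.73 and 0.74 in the others. Capn5 was at -0.68 in replicate 3 and between -0.54 and -0.51 in the others. H19 was at -0.42 in replicate 4 and between -0.97 and -0.88 in the others.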

How the results depend on the processing

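No paired analysis was possible because the study has 1 group. The chromosome 7 median kept its sign and its side of the threshold under the alternatives run, with a range of 0.03 to 0.07, and was 0.042 to 0.056 without single replicates. Windows called higher, 4 in the main setting, were 1 with normexp, 2 centred on the mode, 8 within slide 2, 14 with 2-Mb windows, 1 with 10-Mb windows, 20 without a size limit, 0 at a limit of 0.25 and 4 to 6 without single replicates. Windows called lower, 0 by limma in the main setting, were 1 with 2-Mb windows and 4 without a size limit. The distal minus middle difference was -0.027 within slide 1 (adjusted p = 0.048 by limma), 0.0021 within slide 2, and -0.019 to -0.0073 without single replicates. Middle minus proximal was 0.090 to 0.098 and distal minus proximal 0.074 to 0.090 without single replicates, and autosomes below chromosome 7 numbered 12 to 14, against 11 with slide as a random block or slide means. Genes called higher, 296 in the main setting, were 165 within slide 1, 113 within slide 2, 85 at a size limit of 0.5, 51 with at least 3 probes and 225 to 237 without single replicates. Genes called lower, 255, were 76 within slide 2, 90 at 0.5, 29 with at least 3 probes when adjusted over such genes alone and 180 to 229 without single replicates. Called segments, 0 in the main setting, were 4 at a penalty multiplier of 5. The cause of these changes was not tested.

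Of 76 called genes among the 100 named, 54 kept their call under all alternatives run for genes. Signs turned in 29 of 1292 gene comparisons. With normexp Cyp2s1 was 0.00056, Cyp2b10 -0.046, Cyp2b19 -0.0062, Atp10a -0.018, Magel2 0.029, Th 0.25, Slc22a18 0.062, Phlda2 -0.0079 and Tnfrsf23 0.026. On bright probes Usp29 was -0.16, Cyp2s1 0.013, Pold1 0.14, P4ha3 0.069 and Slc22a18 0.35. In the deposited table Magel2 was 0.069 and Tnfrsf23 0.054. Corrected for probe GC, Cyp2s1 was 0.0088, Magel2 0.11, Ins2 0.11 and Ascl2 0.026. With surrounding GC as well, Cyp2s1 was 0.032, Pold1 0.017, Magel2 0.015, Ins2 0.16 and Ascl2 0.072. Without single replicates, Cyp2s1 ran from -0.12 to 0.022, Magel2 from -0.11 to 0.049 and Ascl2 from -0.11 to 0.0044. The precision is limited by 4 arrays, and 164 members were dim in the sample channel alone.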
